A study of Saccharomyces cerevisiae with 11 samples.

Results

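FRM2 (YCL026C-A) and HBN1 (YCL026C-B) are neighbouring paralogs of the yeast Saccharomyces cerevisiae that code for nitroreductase-like proteins. They were taken as the spots annotated with either name on both array designs of the series, with spots of a gene averaged. They are 2 of the 5406 named genes with a value on both designs. FRM2 had 2 spots and HBN1 had 1 spot among the 10807 spots of each design. The pair was chosen by the measured log ratios of arsenate over control, which differed widely between the paralogs. Those ratios are therefore given as a description, without a test. The tests below concern differences between times and between phosphate levels. The choice did not name those differences, but it drew on the same ratios, and earlier results of these data were known.

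Nitroreductases are flavin enzymes that, in bacteria, reduce nitroaromatic compounds with NADPH or NADH. FRM2 was named after a role in fatty acid signalling, where it has been linked to repression of the fatty acid desaturase gene OLE1, and HBN1 after its likeness to bacterial nitroreductases. Both have been tied to the oxidative stress response of yeast. Arsenate resembles phosphate and enters cells through phosphate carriers. Yeast reduces it to arsenite with the enzyme encoded by ARR2 and exports arsenite with the pump encoded by ARR3, and both genes are switched on by the transcription factor ARR1.

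Strain S288C was grown at 30 °C with 2% sucrose and either 100 μM phosphate (low) or 1 mM phosphate (high). At an optical density of 0.08 the treated cultures received 2 μM arsenate and the control cultures received sodium chloride in its place, given as 200 mM without a statement of whether that is a stock or a final concentration. RNA was compared on 11 arrays with 2 dyes each. Low phosphate had 2 arrays at each of 4, 8 and 10 h, and high phosphate had 2 after 4 h, 2 after 8 h and 1 after 10 h. Every array carried the arsenate RNA in Cy5 and the RNA of its sodium chloride control in Cy3, so a dye preference of a gene is part of each ratio. The labels do not say whether replicates came from separate cultures, so p-values measure only the spread between these arrays. Each phosphate level was run on its own array design, so phosphate and design cannot be told apart.

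The arrays held values for 4484 to 5451 genes. The 2 high phosphate arrays at 8 h stood apart from each other, with a correlation of 0.199 across 4253 genes, against 0.767 to 0.936 between replicates at low phosphate. The second of them had the most blank spots of all, 35.2%. In the limma fit of the high phosphate table, 0 of 4816 genes (0%) passed at an adjusted p of 0.05 for the mean over times, while 1630 had an unadjusted p below that value. Without the first or the second 8 h array 1260 or 1255 genes passed. A lack of calls at high phosphate is thus not a sign of equal levels.

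All values below are log2 ratios of arsenate over control unless stated, so 1 means 2-fold higher and -1 means 2-fold lower with arsenate. At low phosphate FRM2 lay far above control at every time. Its ratio was 6.10 and 7.95 after 4 h, 7.64 and 7.27 after 8 h, and 4.65 and 5.34 after 10 h. As ratios of signal these are 25.1-fold to 247-fold with arsenate. Intensities were not used, so how near background the control signal of FRM2 was is not known. The 10 h arrays were the lowest and did not overlap those of the earlier times, while the 4 h arrays spanned the 8 h arrays. FRM2 had the highest or second highest ratio of all genes on 6 of 6 low phosphate arrays, exceeded by ARR2 on 5 of them.

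HBN1, encoded next to FRM2, stayed within about 2-fold of control at low phosphate and changed sign over time. It stood at -0.43 and -0.49 after 4 h, 0.55 and 0.39 after 8 h, and 0.90 and 1.10 after 10 h. The times did not overlap, and both 4 h arrays lay below control while the other 4 lay above. In the order of all genes of an array, HBN1 exceeded 15.1% and 4.81% of genes after 4 h, 87.4% and 85.5% after 8 h, and 98.2% and 99.1% after 10 h. By the mean over times it ranked 439 of 5185 genes, at 0.34, between RHO1, a GTPase of cell wall signalling, and AFB1, both at 0.34, whereas FRM2 ranked 2 at 6.49, between ARR2 at 6.94 and ARR3 at 5.08.

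At high phosphate FRM2 was again above control on every array, with a wide spread. It stood at 3.35 and 4.00 after 4 h, 5.86 and 1.29 after 8 h, and 5.07 on the only 10 h array. The second 8 h array, which had a value at only 1 of the 2 FRM2 spots, was the lowest of all 11 arrays for this gene. There FRM2 ranked 23 of 4484 genes, and on the other 4 high phosphate arrays it ranked 1 or 2. HBN1 stood at -1.54 on the 4 h array that measured it, at 0.32 and -0.34 after 8 h, and at 0.44 after 10 h. Its lowest value was thus after 4 h and its highest at 10 h in both media, but the single values after 4 h and 10 h give no spread of their own. By the mean over times FRM2 ranked 1 of 4816 genes, at 4.11, directly above ARR2 at 3.45. Without the first 8 h array, on which ARR2 was blank, FRM2 stood at 3.34 and ranked 2, below ARR2, and over all arrays left out in turn it ran from 3.34 to 4.87. HBN1 ranked 3806, at -0.37, between the vesicle protein gene SNC1 and CGR1, a ribosome assembly gene, both at -0.37.

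**Figure D1:**
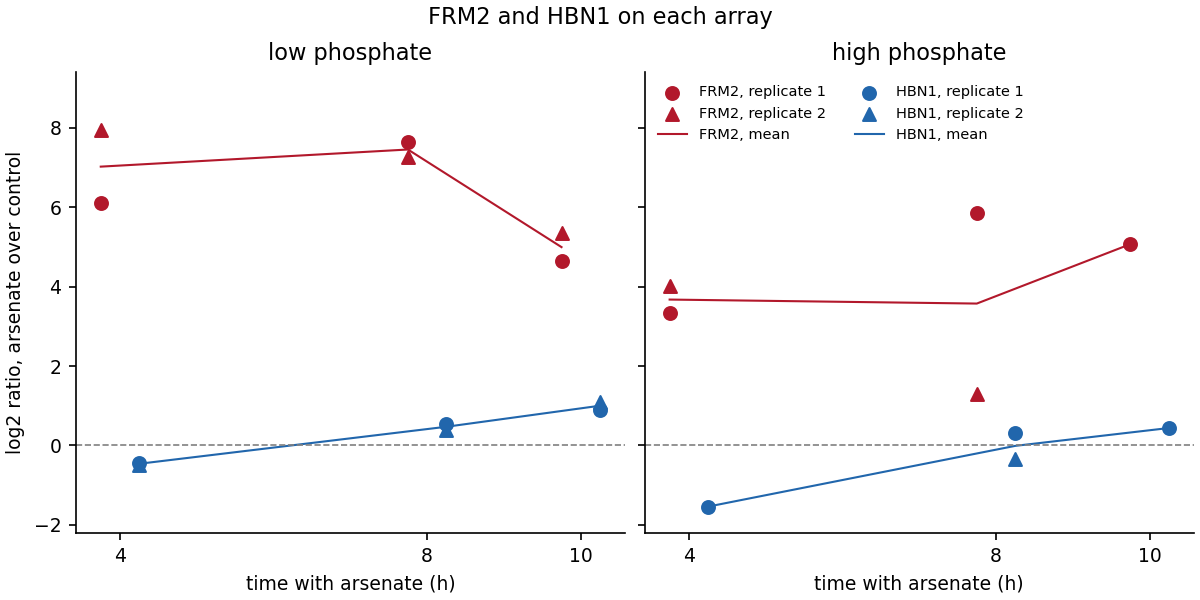
Log2 ratio of arsenate over control (vertical axis) against time in hours (horizontal axis) for FRM2 (red) and HBN1 (blue), with 1 symbol per array, circles for replicate 1, triangles for replicate 2, and lines through the means. FRM2 lies between 4.65 and 7.95 at low phosphate and between 1.29 and 5.86 at high phosphate, above HBN1 on all 10 arrays that measured both.

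The gap between the paralogs, FRM2 minus HBN1 on the same array, was 6.53 and 8.44 after 4 h of low phosphate, 7.08 and 6.88 after 8 h, and 3.75 and 4.24 after 10 h. At high phosphate the gap was 4.88 on the 4 h array with both values, 5.55 and 1.62 after 8 h, and 4.63 after 10 h. The ratio of FRM2 exceeded that of HBN1 by 13.4-fold to 348-fold at low phosphate and by 3.08-fold to 46.7-fold at high phosphate. At low phosphate the gap was smallest after 10 h, when FRM2 was at its lowest and HBN1 at its highest. The change of the gap between times was not tested.

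The 2 FRM2 spots bear on how well its level is known. At 4 h of low phosphate they gave 6.09 and 6.10 on the first array but 6.91 and 8.99 on the second. That difference of 2.08 was larger than in 99.8% of the 2861 genes with 2 spots on that array, whose median difference was 0.21. At 8 h the spots gave 7.84 and 7.43 on the first array and 7.42 and 7.12 on the second, and at 10 h 4.67 and 4.63 on the first and 5.03 and 5.65 on the second. At high phosphate the spots gave 3.02 and 3.67 on the first 4 h array, 4.52 and 3.49 on the second, 6.91 and 4.81 on the first 8 h array, and 5.43 and 4.71 after 10 h. The spots thus differed by 0.00 to 2.09 where both had a value, and they were above 0 on every array that measured them. HBN1 rests on 1 spot throughout.

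The first tested question was whether the response of each paralog differed between times at low phosphate. HBN1 rose from 4 h to 8 h by 0.93 (SE 0.17, limma adjusted p = 0.000453) and from 4 h to 10 h by 1.46 (SE 0.17, limma adjusted p = 4.91e-06), with every later array above both 4 h arrays. The medians of all genes for these differences were -0.11 and 0.07. From 8 h to 10 h HBN1 rose by 0.53 (SE 0.17, limma adjusted p = 0.0166), while the median of all genes rose by 0.22. After each array was centred on its gene median that step was 0.33 and no longer passed (limma adjusted p = 0.0821). It also failed without either 8 h array or either 10 h array, with limma adjusted p from 0.0507 to 0.224 and values from 0.43 to 0.63, and over all its alternatives adjusted p ran from 0.00283 to 0.224.

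FRM2 moved the other way late in the series. It fell by 2.46 from 8 h to 10 h (SE 0.37, limma adjusted p = 3.7e-05) and fell by 2.03 from 4 h to 10 h (SE 0.37, limma adjusted p = 0.000423), with both 10 h arrays below all 4 earlier ones. By the 8 h to 10 h difference it ranked 7 from the lowest of 5185 genes, between ARR2 at -2.36 and ARR3 at -2.47. From 4 h to 8 h FRM2 differed by 0.43 (SE 0.37, 95% interval -0.34 to 1.20, limma adjusted p = 0.388). Of the 2 paralogs, 1 passed from 4 h to 8 h, 2 from 8 h to 10 h and 2 from 4 h to 10 h, beside 33.1%, 45.4% and 33.5% of all 5185 genes.

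Both falls of FRM2 depend on how its own spread is treated. Its spread between replicates, pooled over times, was an SD of 0.82, against 0.11 for HBN1, and the fit pulled it toward a value pooled over all genes. With robust empirical Bayes, which does less of this for genes of unusual spread, FRM2 fell short at 8 h to 10 h (limma adjusted p = 0.0769) and at 4 h to 10 h (limma adjusted p = 0.142). Scaling the arrays to an equal spread turned the 4 h to 8 h difference to -1.65 (limma adjusted p = 0.0209) and left -1.20 from 8 h to 10 h (limma adjusted p = 0.0583). The 4 h to 8 h difference also turned with the array used, to -0.50 without the first 4 h array and to 1.36 without the second, which passed (limma adjusted p = 0.00261). It turned with the spot, at 1.13 for the first (limma adjusted p = 0.00113) and -0.27 for the second (limma adjusted p = 0.733). Over all alternatives adjusted p ran from 5.91e-32 to 0.0769 for 8 h to 10 h, from 9.75e-22 to 0.142 for 4 h to 10 h and from 0.00113 to 0.733 for 4 h to 8 h. Without the second 4 h array the 4 h to 10 h difference was -1.10.

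At high phosphate neither paralog passed between 4 h and 8 h, as was the case for all 4816 genes in the limma test (0% passed), of which 329 had an unadjusted p below 0.05. HBN1 differed by 1.53 (SE 0.37, 95% interval 0.26 to 2.80, limma adjusted p = 0.688) on 1 array of 4 h and 2 of 8 h. FRM2 differed by -0.10 (SE 1.70, 95% interval -4.96 to 4.76, limma adjusted p = 0.981). Without the second 8 h array that value was 2.19 (limma adjusted p = 0.0791), and without the first it was -2.39, in a range of adjusted p from 0.0764 to 0.997 over its alternatives. A change of FRM2 between these times of several-fold in either direction was therefore not detectable here.

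The next question was whether the responses differed between low and high phosphate. Averaged over matched times, HBN1 was higher at low phosphate by 0.71 (SE 0.15, 95% interval 0.37 to 1.05, limma adjusted p = 0.0143), where the median of all 4841 genes was 0.15. Its means were -0.46, 0.47 and 1.00 at 4, 8 and 10 h of low phosphate against -1.54, -0.01 and 0.44 at high phosphate, so the low phosphate mean was the higher at each time. The -1.54 comes from 1 array, and the difference could not be refitted without that array. The call was lost without the first 8 h array of low phosphate, at 0.68 (limma adjusted p = 0.0502), and adjusted p ran from 0.000267 to 0.0502 over its alternatives. By time the difference was 1.08 for 4 h (limma adjusted p = 0.0492), 0.48 for 8 h (limma adjusted p = 0.141) and 0.56 for 10 h (limma adjusted p = 0.266). The 4 h difference rests on 1 high phosphate array, and its call was lost under 8 of 15 alternatives, among them centring (0.88) and leaving out any 1 low phosphate array (1.05 to 1.11), with adjusted p from 0.0026 to 0.174. Without the first 8 h array of high phosphate the 8 h difference was 0.81 (limma adjusted p = 0.00551), and without the second it was 0.16, in a range of adjusted p from 0.00551 to 0.555.

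FRM2 was 2.38 higher at low phosphate (SE 0.77, 95% interval 0.63 to 4.13), which missed the threshold (limma adjusted p = 0.0536). Its means were 7.02, 7.45 and 5.0 at low phosphate against 3.67, 3.57 and 5.07 at high phosphate. The low phosphate arrays lay above the high phosphate arrays after 4 h and 8 h, and the single 10 h value of high phosphate lay between the 2 of low phosphate. For the mean over times, leaving out the first 8 h array of high phosphate gave 3.15 (limma adjusted p = 2.48e-05) and leaving out the second gave 1.62 (limma adjusted p = 0.00209). With the replicate number as a block within each phosphate level it was 2.71 and passed (limma adjusted p = 0.0318). Whether the numbers pair the arrays is not settled. The adjusted p ran from 2.48e-05 to 0.154 over its alternatives. By time FRM2 was 3.35 higher for 4 h (limma adjusted p = 0.125) and 3.88 higher for 8 h (limma adjusted p = 0.0451), and differed by -0.07 for 10 h (limma adjusted p = 0.984). The 8 h call was lost under 12 of 19 alternatives, with adjusted p from 8.71e-06 to 0.179, and the value was 6.17 without the first 8 h array of high phosphate and 1.59 without the second. The 4 h difference passed without either of those arrays (limma adjusted p = 0.000464 and 0.00083), in a range of adjusted p from 0.000464 to 0.474. Whether the differences themselves changed with time was not tested. Of the 2 paralogs, 1 passed for the mean over times, beside 23.9% of all genes. For 4 h, 8 h and 10 h, 1, 1 and 0 passed, beside 8.97%, 28.8% and 4.28%.

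**Figure D2:**
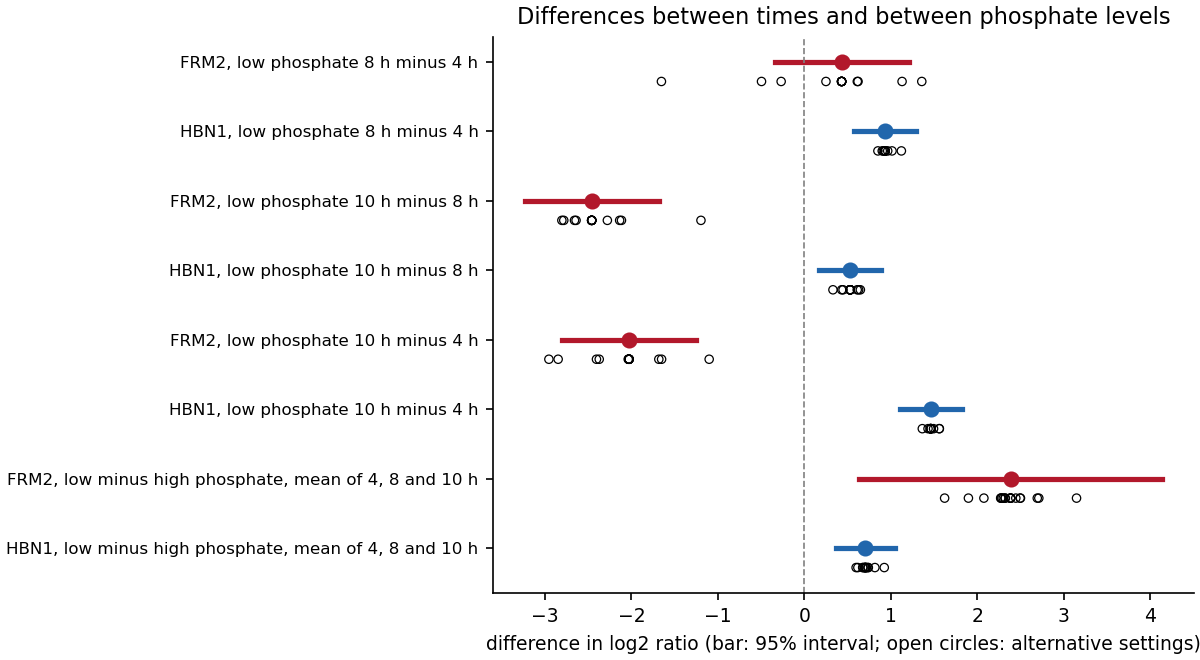
Differences in log2 ratio (horizontal axis) for FRM2 (red) and HBN1 (blue) between times at low phosphate and between low and high phosphate. Filled points are the fitted differences, bars their 95% intervals, and open circles the values under alternative settings. FRM2 lies at -2.46 from 8 h to 10 h where HBN1 lies at 0.53, and the open circles of FRM2 from 4 h to 8 h fall on both sides of 0.

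By the mean over times FRM2 was closer in level to ARR2 and ARR3 than to its paralog, while ARR1 lay far below it. The second 8 h array of high phosphate was an exception. There FRM2 stood at 1.29, HBN1 at -0.34, ARR1 at 0.23, ARR2 at 3.40 and ARR3 at 3.68. At low phosphate ARR2, the arsenate reductase gene, stood at 7.29 and 7.42 after 4 h, 8.00 and 7.81 after 8 h, and 5.23 and 5.87 after 10 h. ARR2 and FRM2 were thus both lowest after 10 h, and ARR2 was above FRM2 on 5 of 6 arrays. ARR3, the arsenite exporter gene, varied more, at 3.98 and 5.97 after 4 h, 5.63 and 7.11 after 8 h, and 2.66 and 5.14 after 10 h, and lay below FRM2 on 6 of 6 arrays. At high phosphate ARR2 stayed between 3.34 and 3.59 on the 4 arrays that measured it, was above FRM2 on 2 of them, and showed a narrower range than FRM2. ARR3 at high phosphate stood at 3.29 and 0.44 after 4 h, 4.35 and 3.68 after 8 h, and 2.83 after 10 h. ARR1, the activator of both, ranged from 0.26 to 0.59 at low and from 0.07 to 0.25 at high phosphate.

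**Figure D3:**
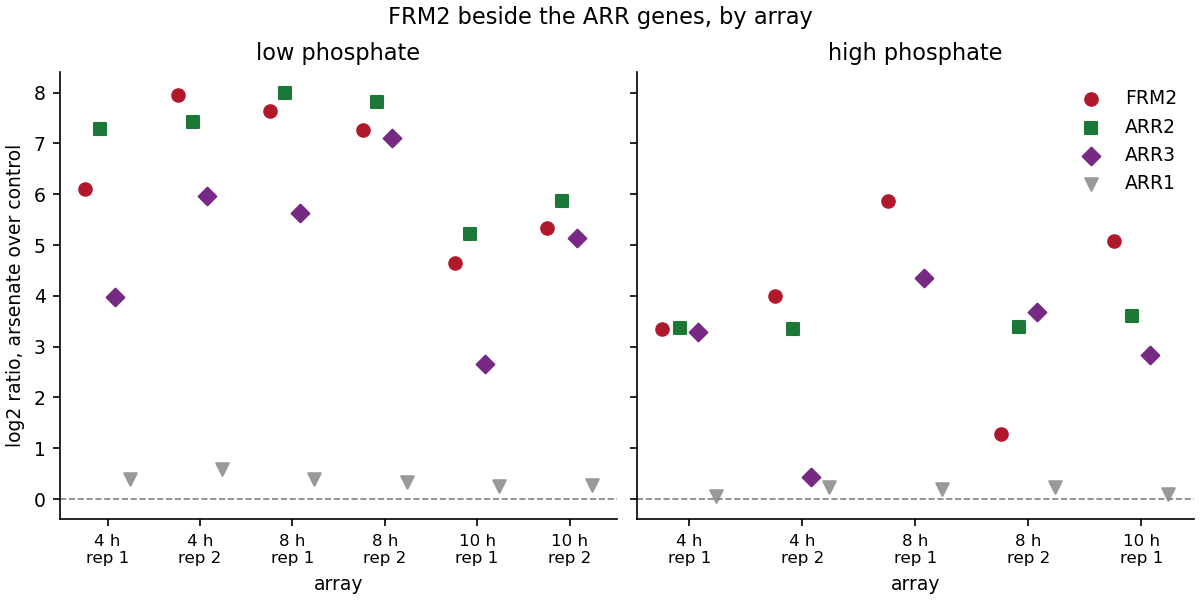
Log2 ratio of arsenate over control (vertical axis) on each array (horizontal axis, time and replicate) for FRM2, ARR2, ARR3 and ARR1. At low phosphate FRM2 and ARR2 are both lowest after 10 h, and at high phosphate FRM2 ranges from 1.29 to 5.86 while ARR2 stays between 3.34 and 3.59.

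Likeness of profile was described by the Pearson correlation over arrays and by the Euclidean distance between log ratios, among 4746 genes with a value on all 6 low phosphate arrays. These arrays come from only 3 times, so many genes reach a high correlation. Distance follows level, and FRM2 was chosen for its ratios, so the genes with the highest ratios come out nearest to it. By distance the genes nearest to FRM2 were ARR2 at 1.65 and ARR3 at 4.06, followed by the sulfate permease gene SUL1 at 10.95, the methionine permease gene MUP1 at 12.6 and the ribosomal protein gene RPS18B at 13.2. By correlation the first 5 for FRM2 were IMO32 at 0.999, the mitochondrial carrier gene YMC1 at 0.994, the ribosome assembly genes RSA1 at 0.993 and YAR1 at 0.992, and POP1, of ribonuclease P, at 0.993. Their ratios ranged only from -0.45 to 0.42, against 4.65 to 7.95 for FRM2. By the same measure ARR2 came 245th at 0.912, ARR3 630th at 0.797 and HBN1 3703rd at -0.57.

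The genes most like HBN1 by correlation at low phosphate were the chaperone genes HSP42 at 0.993 and HSP78 at 0.991, YML131W at 0.992, SCS3 at 0.991 and PNS1 at 0.989. HSP42 codes for a small heat shock protein and HSP78 for a mitochondrial disaggregase. Their ratios reached -2.60 and -2.43 at the lowest, well below the -0.49 of HBN1. By distance the nearest to HBN1 were the drug transporter gene QDR2 at 0.40, the hexose transporter gene HXT1 at 0.51, COS6 at 0.60, CPP2 at 0.60 and YGK1 at 0.74. Over both media the first 5 by correlation for FRM2, on 11 arrays and 3928 genes, were DEG1 at 0.954, SLX9 at 0.942, PRS2 at 0.936, TRM44 at 0.932 and PKP2 at 0.924. For HBN1, on 10 arrays and 3980 genes, they were SGO1 at 0.915, RAD30 at 0.904, NUP60 at 0.898, FMP30 at 0.897 and MAS1 at 0.895. None of the first 5 by correlation over low phosphate recurred over both media for either paralog. By distance over both media the nearest to FRM2 were ARR3 at 6.49, SUL1 at 13.8, MUP1 at 15.3, RPS18B at 15.8 and RPS0B at 16.2, of which the first 4 were also among the nearest 5 at low phosphate. ARR2, blank on 1 array, was not in that comparison. For HBN1 they were YHR127W at 1.40, AFI1 at 1.51, PEX31 at 1.53, HO at 1.55 and YGK1 at 1.58, of which only YGK1 recurred. The arrays of both media include those of low phosphate, so a gene that recurs is no separate support.

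The genes around the pair on chromosome III were examined next, taking 5 annotated genes on each side. In chromosome order they are RRP7, HIS4, BIK1, RNQ1 and FUS1, then HBN1 and FRM2, then AGP1, KCC4, YNCC0001C, YCL021W-A and YCL019W. Of the 10 neighbours 8 were tested. For the mean over times at low phosphate 2 were higher and 3 lower, where 19.1% and 20.1% of all 5185 genes were higher and lower. Their median was -0.10 and that of all genes 0.00.

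AGP1, the amino acid permease gene directly beside FRM2, rose by 0.64 (SE 0.08, limma adjusted p = 6.21e-06), with 0.24 and 0.78 after 4 h, 1.29 and 1.19 after 8 h and -0.06 and 0.44 after 10 h. It was above 0 on 5 of 6 arrays and highest after 8 h. FUS1, a mating gene directly beside HBN1, fell by 0.56 (SE 0.07, limma adjusted p = 6.19e-06), with -0.83 and -1.18 after 4 h, -0.46 and -0.65 after 8 h and -0.22 and -0.04 after 10 h. FUS1 was thus lowest after 4 h and closest to control after 10 h. RRP7, of ribosome assembly, rose by 0.31 (SE 0.08), while KCC4, a bud neck kinase gene, fell by 0.29 (SE 0.09) and YCL021W-A fell by 0.27 (SE 0.07). KCC4 was measured on 4 of the 6 arrays. The call of RRP7 was lost without the first 8 h array, at 0.24 (limma adjusted p = 0.051). That of KCC4 was lost after centring, at -0.23 (limma adjusted p = 0.0698), and with array weights (limma adjusted p = 0.0514). That of YCL021W-A was lost without the second 8 h array, at -0.21 (limma adjusted p = 0.0892), and without the first 10 h array, at -0.25 (limma adjusted p = 0.0511). Adjusted p ran from 0.000175 to 0.051 for RRP7, from 0.00921 to 0.0698 for KCC4 and from 0.00149 to 0.0892 for YCL021W-A. HIS4, of histidine synthesis, stood at -0.06, BIK1, of microtubules, at -0.13 and the prion protein gene RNQ1 at 0.17, and these did not pass. The number of neighbours called was 3 in place of 5 without the first or the second 8 h array or without the first 10 h array. At high phosphate their means ran from -0.86 for BIK1 to 0.27 for HIS4.

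**Figure D4:**
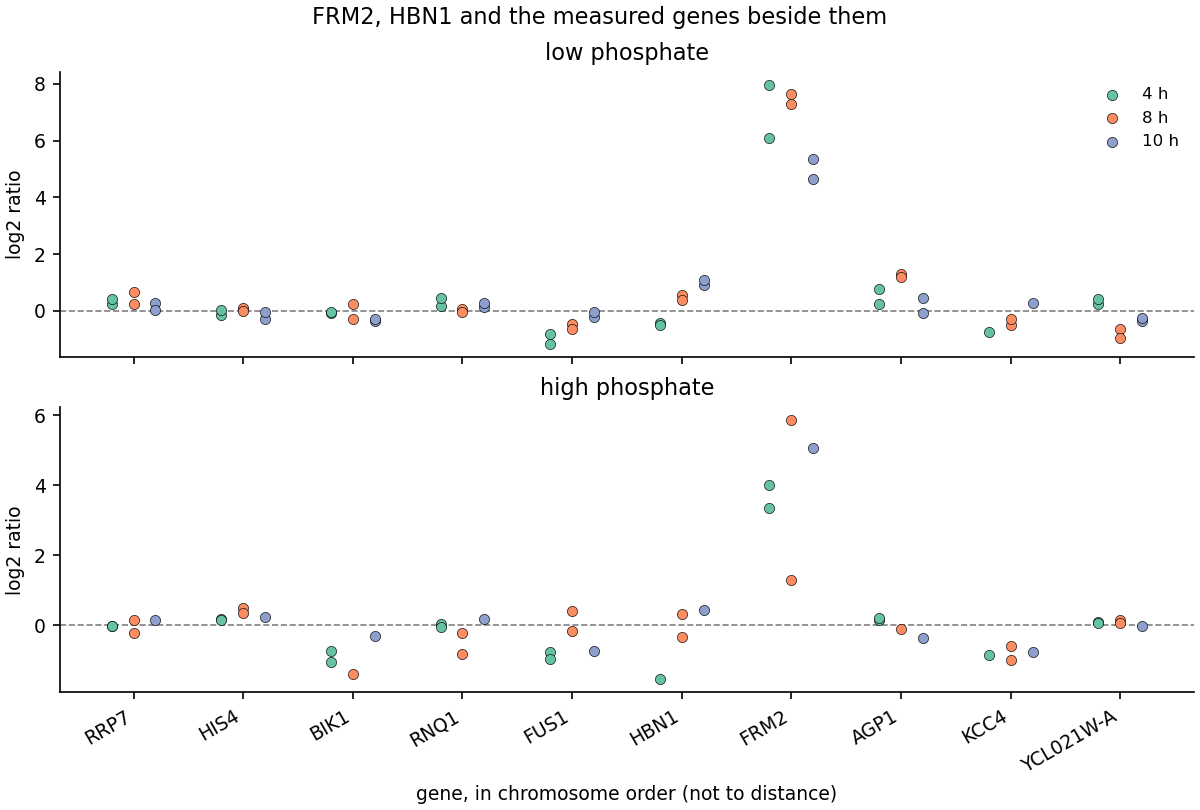
Log2 ratio of arsenate over control (vertical axis) for HBN1, FRM2 and the 8 measured neighbours in chromosome order (horizontal axis), with 1 point per array coloured by time. FRM2 alone lies above 1.29 on the low phosphate arrays, from 4.65 to 7.95, while AGP1 and FUS1 on either side of the pair stay between -1.18 and 1.29.

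Genes near the known roles of the pair were counted from lists chosen with earlier results of these data known, by the mean over times at low phosphate, where 39.3% of all genes passed in either direction. Of 20 genes of fatty acid synthesis, desaturation and breakdown 19 were tested, 4 were higher and 2 lower, and their median was 0.10. FAA4, an acyl-CoA synthetase gene, rose by 0.58 (SE 0.07, limma adjusted p = 5.79e-06), and POT1, the peroxisomal thiolase gene, fell by 1.28 (SE 0.09, limma adjusted p = 7.21e-09). POT1 stood at -2.26 on the only 4 h array that measured it and at -1.27 and -1.84 after 8 h. After 10 h it stood at -0.06 and 0.02. OLE1, the desaturase gene to which FRM2 has been linked, stood at 0.12 (SE 0.07, limma adjusted p = 0.2) as a mean over times. By array OLE1 stood at 0.58 and 0.79 after 4 h, 0.09 and 0.29 after 8 h and -0.64 and -0.39 after 10 h, so it was lowest after 10 h. A link between OLE1 and FRM2 was not tested. At high phosphate OLE1 lay between 0.26 and 0.44 on all 5 arrays.

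Other oxidoreductases that use NADPH, flavin or quinones did not share the level of FRM2. Of 17 listed, 15 were tested, 1 was higher and 5 lower by the mean over times, where 19.1% and 20.1% of all genes were higher and lower. The median of these means was -0.15, with a range from -0.34 to 0.30. AAD6, an aryl-alcohol dehydrogenase gene with close copies elsewhere in the genome, rose by 0.30 (SE 0.09, limma adjusted p = 0.0111), a call lost without the second 10 h array at 0.25 (limma adjusted p = 0.0946) and without the first 8 h array at 0.25 (limma adjusted p = 0.0805). Its adjusted p ran from 0.00207 to 0.0946. ZTA1, a quinone oxidoreductase gene, fell by 0.34 (SE 0.07, limma adjusted p = 0.00136). The old yellow enzyme gene OYE2 stood at -0.15 (SE 0.07, limma adjusted p = 0.109) and the quinone reductase gene LOT6 at -0.13 (SE 0.07, limma adjusted p = 0.146). LOT6 passed without the first 4 h array (limma adjusted p = 0.0262, in a range from 0.0262 to 0.455). OYE3, which had no value after 4 h, stood at 0.21 and 0.17 after 8 h and -0.31 and -0.24 after 10 h. At single times the list ran wider, from -1.90 to 0.73 after 4 h, -0.88 to 0.69 after 8 h and -0.61 to 0.71 after 10 h. GRE2, named here for the lowest of these values, stood at -1.90 after 4 h, 0.62 after 8 h and 0.71 after 10 h. It is among the 5 counted as lower, with a mean over times of -0.19 (limma adjusted p = 0.0491), although it was below control only after 4 h. Without the first 10 h array 3 genes of this list passed in place of 6.

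Of 15 Yap1 target genes 14 were tested, with 2 higher and 0 lower and a median of 0.03. Yap1 is the main activator of oxidative stress genes in yeast. The called genes were ATR1, a drug efflux gene, which rose by 0.81 (SE 0.07, limma adjusted p = 5.54e-08), and GSH1, the first enzyme of glutathione synthesis, named here because the count was small, at 0.55 (SE 0.07, limma adjusted p = 7.11e-06). YAP1 itself stood at -0.04 (SE 0.07, limma adjusted p = 0.644) as a mean over times, with 0.18 after 4 h, -0.51 after 8 h and 0.19 after 10 h. After 8 h the genes of this list ran from -0.61 to 1.32. After centring 6 genes of this list passed, and without the second 4 h array 4 did. Of the 5 arsenic handling genes 3 were higher and 0 lower, with a median of 0.37. At high phosphate 0 genes of these lists passed, as for all genes, and the medians were 0.14 for the fatty acid list, 0.04 for the oxidoreductases and 0.15 for the Yap1 targets, where the median of all genes was -0.12.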

How the data were processed

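RNA of arsenate and control cultures was measured on 11 arrays with 2 dyes. The deposited values were read here as log2 ratios, Cy5 over Cy3, that the authors had normalized on spots whose flag was 0, per the labels. How they normalized, and the log base, direction and centring of the values, is not given in the sources used here. Direction was taken from the dyes and base 2 was assumed. The gene medians of the arrays ran from -0.18 to 0.18. Intensities, and so signal over background, were not used here, and the number of arrays limits precision. Probe sequences were not used either, so binding of the RNA of one paralog at the spot of the other was not tested.

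Genes were named from the platform annotation, updated through gene identifiers to the RefSeq R64 gene table, which also gave the neighbours. Its coordinates are not printed, as the build behind the spots is not given. Promoter and protein sequences were not analysed here. Spots of a gene were averaged per array. Genes with a value in every group and with a spread of their own entered a fit of group means in limma 3.58.1 under R 4.3.3 (lmFit, eBayes), two-sided, with Benjamini-Hochberg adjustment over all genes and a threshold of 0.05. The fits covered 5185 genes at low, 4816 at high and 4841 for low minus high phosphate. The lone 10 h array of high phosphate and the lone HBN1 value at 4 h there were assumed to vary like the other groups. The test was checked on simulated data. Tables and figures were made with Python 3.11.15, numpy 2.4.6, pandas 2.3.3 and matplotlib 3.10.9.

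At low phosphate, deviations of same-numbered replicates from the means of their times correlated at 0.109, 0.136 and 0.190 between the 3 pairs of times. At high phosphate the correlation was -0.02. Between phosphate levels, on different array designs, such correlations ran from -0.1157 to 0.1435. Whether the numbers pair the arrays is therefore not settled. The members, lists, naming rule and tests were chosen with earlier results of these data known. The differences between phosphate levels at single times were added after their mean over times had been seen. Named were the paralogs, their neighbours, the gene of each list with the largest called rise and fall, 8 genes always named, the genes next to the paralogs in order, and the 5 genes of most similar profile.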

Additional observations from a re-analysis of the deposited data

Results flagged for a closer look

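Differences of the paralogs between times or phosphate levels that passed a test of the difference itself, out of those the report tests, are collected here. At low phosphate HBN1 differed between 4 h and 8 h (0.93), between 8 h and 10 h (0.53) and between 4 h and 10 h (1.46), each time with the later arrays higher. FRM2 differed between 8 h and 10 h (-2.46) and between 4 h and 10 h (-2.03), with the 10 h arrays lower. Between low and high phosphate HBN1 differed in the mean over times (0.71) and for 4 h (1.08), and FRM2 differed for 8 h (3.88), comparisons in which phosphate and array design cannot be told apart. Several of these calls depend on the setting. HBN1 from 8 h to 10 h lost its call under 5 of 13 alternatives, and both falls of FRM2 missed the threshold with robust empirical Bayes. Between phosphate levels, HBN1 lost its call under 1 of 15 alternatives for the mean and 8 of 15 for 4 h, and FRM2 under 12 of 19 for 8 h.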

How the results depend on the processing

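The tested values of the paralogs were recomputed under 239 combinations of result and setting, of which 187 kept direction and side of the threshold, and the 47 untested means moved by less than the spread between replicates in each case. For FRM2 from 4 h to 8 h at low phosphate, scaling gave -1.65, the first spot 1.13, the second spot -0.27, and leaving out 1 array -0.50 to 1.36. From 8 h to 10 h FRM2 stood at -1.20 after scaling and -2.46 with robust empirical Bayes (leaving out 1 array, -2.80 to -2.11), and from 4 h to 10 h at -2.03 with robust empirical Bayes (-2.95 to -1.10). For FRM2 at high phosphate from 4 h to 8 h the first spot gave 0.33, the second 1.24 and leaving out 1 array -2.39 to 2.19. FRM2 low minus high phosphate passed with array weights (2.38), scaling (2.32), the second spot (2.28) and the replicate block (2.71, adjusted p = 0.0318), and leaving out 1 array gave 1.62 to 3.15. HBN1 from 8 h to 10 h stood at 0.33 after centring and at 0.43 to 0.63 without 1 array, and HBN1 low minus high phosphate at 0.60 to 0.82. By time, FRM2 low minus high phosphate for 4 h passed after scaling (3.87) and with the second spot (3.96), and ran from 2.42 to 4.27 without 1 array. For 8 h it missed the threshold after scaling (3.31), with the first spot (3.54), the second spot (2.46) and robust empirical Bayes (3.88), and ran from 1.59 to 6.17 without 1 array. For 10 h it turned to 0.43 with the second spot and 0.90 with the replicate block, and ran from -0.42 to 0.27 without 1 array. HBN1 for 4 h stood at 0.88 after centring and 1.05 to 1.11 without 1 array, and for 8 h at 0.16 to 0.81. The replicate block changed no other call of the paralogs. YAP1 ran from -0.10 to 0.01 without 1 array, turning to 0.0067 without the first 4 h array. Leaving out 1 array changed the number of called genes from 0 to between 0 and 1260 at high phosphate, from 1156 to between 591 and 1701 for low minus high phosphate (by time, from 434 to between 101 and 980 for 4 h, from 1392 to between 629 and 1723 for 8 h and from 207 to between 0 and 599 for 10 h), and at low phosphate from 1738 to between 980 and 2076 for 10 h minus 4 h, from 2354 to between 1404 and 2943 for 10 h minus 8 h and from 1715 to between 932 and 2187 for 8 h minus 4 h. For low minus high phosphate, scaling called 718 genes for 4 h and 340 for 10 h, genes measured on every array 274 for 4 h, and for 10 h array weights called 488, centring 518 and the replicate block 13. The causes of these changes were not tested. HBN1 could not be fitted at high phosphate with the block, without the first 4 h array, without either 8 h array or on genes measured on every array. Its low minus high phosphate differences could not be fitted without the first 4 h array of high phosphate or on genes measured on every array.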
